A study of Homo sapiens with 52 samples.

Results

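The plexins are the cell surface receptors of the semaphorins, and in human cells they form 4 classes: PLXNA1, PLXNA2, PLXNA3 and PLXNA4 in class A, PLXNB1, PLXNB2 and PLXNB3 in class B, PLXNC1 in class C and PLXND1 in class D. These 9 genes were chosen by name from the 78894 genes of the series, and their names alone decided membership. All 9 had enough counts to be tested in the model of each line and in that of all samples.

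The series is bulk mRNA sequencing of 52 samples from 3 established human breast cancer cell lines of the claudin-low type, SUM159PT, MDA-MB-231 and HS578T, in which NRP1 was knocked down by RNA interference. Each line had 6 groups. The siRNA groups were reverse transfected with 20 nM siRNA and harvested after 72 h, namely the non-targeting control siNT and the NRP1-targeting siNRP1#3 and siNRP1#5. The other 3 groups, shNT, shNRP1#3 and shNRP1#5, were transduced with lentiviral shRNA, selected as a pool with puromycin and harvested 48 h after seeding. Sequence #5 is the same in siNRP1#5 and shNRP1#5 and targets transmembrane and soluble NRP1, whereas the #3 sequences differ between siRNA and shRNA and target transmembrane NRP1 alone. Groups had 3 samples, except for SUM159PT siNRP1#5 with replicates 2 and 3 and HS578T shNRP1#3 with replicates 1 and 2. The shRNA replicates were successive passages of the transduced cells and the siRNA replicates are described as independent. The p-values therefore measure the spread between passages (shRNA) or cultures (siRNA) of one line, and not between transductions or tumours.

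A plexin binds its semaphorin with an extracellular sema domain and signals through a cytoplasmic GTPase-activating domain that acts on small GTPases of the Ras and Rap families. Class 3 semaphorins, which are secreted, mostly need a neuropilin (NRP1 or NRP2) as the ligand-binding partner of a class A plexin or PLXND1, while the membrane-bound semaphorins bind class B plexins, PLXNC1 or class A plexins directly. The family was found through its part in axon guidance, and in epithelial and tumour cells it is known for effects on adhesion, the cytoskeleton, migration and vessel growth. NRP1, the targeted gene, is therefore a partner of the class A receptors and PLXND1 at the cell surface.

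On GRCh38, the build of the deposited values, 3 members lie on chromosome 3. PLXNA1 was at chr3:126982693-127037389 on the plus strand, PLXND1 at chr3:129555214-129606676 on the minus strand and PLXNB1 at chr3:48403854-48430086 on the minus strand. PLXNB3 (chrX:153764196-153779346) and PLXNA3 (chrX:154458281-154477779) are both on the plus strand of chromosome X, with 678934 bases between them. PLXNA2 was at chr1:208022242-208244384 (minus), PLXNA4 at chr7:132123340-132648688 (minus), PLXNB2 at chr22:50274979-50307646 (minus) and PLXNC1 at chr12:94148577-94307675 (plus).

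The promoters of 4 members are shown because PLXNA1 was the member that fell with every NRP1-targeting sequence, and PLXNA3, PLXNB1 and PLXNB3 were the members that followed each other most closely across the treatment groups (see the results of each gene). Each sequence is the RefSeq stretch from 250 bases before to 50 bases after an annotated start on GRCh38.p14, printed 5′ to 3′ in the direction of transcription, with GC boxes in capitals (GGGCGG, or CCGCCC for a match on the other strand). The windows are chr3:126982865-126983164 (plus) for PLXNA1, chrX:154458031-154458330 (plus) for PLXNA3, chr3:48430037-48430336 (minus) for the upstream of the PLXNB1 starts and chrX:153763999-153764298 (plus) for PLXNB3.
PLXNA1: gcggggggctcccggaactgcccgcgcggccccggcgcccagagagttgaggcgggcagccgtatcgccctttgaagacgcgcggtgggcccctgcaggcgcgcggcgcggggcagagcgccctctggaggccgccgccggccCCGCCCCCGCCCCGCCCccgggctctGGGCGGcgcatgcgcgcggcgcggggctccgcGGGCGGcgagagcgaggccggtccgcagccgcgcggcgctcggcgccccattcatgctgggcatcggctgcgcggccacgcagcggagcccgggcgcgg
PLXNA3: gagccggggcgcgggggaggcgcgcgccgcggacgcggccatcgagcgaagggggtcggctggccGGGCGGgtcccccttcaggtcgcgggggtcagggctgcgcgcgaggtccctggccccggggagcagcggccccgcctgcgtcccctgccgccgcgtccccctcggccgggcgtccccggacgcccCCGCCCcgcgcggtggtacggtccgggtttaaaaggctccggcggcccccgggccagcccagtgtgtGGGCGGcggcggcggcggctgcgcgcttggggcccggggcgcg
PLXNB1: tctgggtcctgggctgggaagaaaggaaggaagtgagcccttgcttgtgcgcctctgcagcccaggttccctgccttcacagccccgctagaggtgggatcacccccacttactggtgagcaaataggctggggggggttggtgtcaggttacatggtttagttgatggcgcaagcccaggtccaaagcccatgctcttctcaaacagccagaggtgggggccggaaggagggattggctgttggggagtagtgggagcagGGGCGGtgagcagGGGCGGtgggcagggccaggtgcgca
PLXNB3: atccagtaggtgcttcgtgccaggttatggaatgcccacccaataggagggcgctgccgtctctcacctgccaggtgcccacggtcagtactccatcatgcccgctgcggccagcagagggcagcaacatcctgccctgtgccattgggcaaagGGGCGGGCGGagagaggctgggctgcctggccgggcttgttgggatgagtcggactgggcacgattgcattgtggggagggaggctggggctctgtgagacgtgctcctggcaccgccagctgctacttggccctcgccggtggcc
GC boxes are bound by Sp-family factors. The printed windows held 5 matches in PLXNA1, 3 in PLXNA3, 2 in PLXNB1 and 2 in PLXNB3, some of them overlapping. Of 35116 RefSeq promoters of the same length, 45% held at least 1. These 35116 leave out 1 chromosome, which holds no plexin gene, and are called all promoters below. The letters CCAAT, searched on both strands like the other motifs, occurred once in the PLXNB1 window and 2 times in that of PLXNB3, and in 34.6% of all promoters. None of the 11 promoter windows of the 9 members held a TATA box (TATAAA), an AP-1 site (TGACTCA) or an E-box (CACGTG), which occurred in 11.5%, 4.95% and 7.26% of all promoters. GC content was 83.0% in the PLXNA1 window and 83.3% in that of PLXNA3, against 62.3% in the printed PLXNB1 window, 65.7% in PLXNB3 and a median of 58.7% over all promoters. A second PLXNB1 window, downstream and not printed, had 79.7% GC, 5 GC boxes and no CCAAT.

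Expected counts per sample added up to 25310443 to 72003442 (median 44804505). NRP1 counts were lower in all 12 comparisons of a knockdown with its own control and passed an adjusted p of 0.05 in 11. Log2 fold changes ran from -4.88 in MDA-MB-231 siNRP1#5 to -0.70 in MDA-MB-231 siNRP1#3. In MDA-MB-231 siNRP1#3 the mean was 44.8 CPM against 73.8 CPM in siNT. In TPM, which is scaled for transcript length, it was 28.5 against 28.8, with overlapping ranges. HS578T shNRP1#3, with 2 samples, did not pass (log2 fold change -1.59, edgeR adjusted p = 0.0690). Its samples were nonetheless below every shNT sample (47.4 and 47.6 against 125.8 to 165.4 CPM). Of the genes that claudin-low cells lack, CLDN4 and CLDN7 were at means of 161 and 43.2 TPM in MDA-MB-231 controls, so the label was not met in that line for these markers, and they were below 1 TPM in SUM159PT and HS578T. CDH1 averaged at most 0.523 TPM in the controls of any line and VIM at least 2522 TPM. PECAM1, an endothelial marker, was at a mean of 10.1 TPM in SUM159PT and PTPRC, a leukocyte marker, at 2.94 TPM, and both were below 1 TPM in the other lines; their part in the results was not tested. The HS578T siNRP1#5 samples stood apart, because the median level of 19 MDA-MB-231 marker genes in replicates 1, 2 and 3 was 21.7, 19.4 and 13.2% of that in MDA-MB-231 controls, and replicate 2 also held 16 SUM159PT markers at 5.64%. These 19 genes were chosen as low in HS578T controls and high in MDA-MB-231 controls, but not as low in SUM159PT. How much of the share in replicate 2 came from SUM159PT RNA was not tested. HS578T siNRP1#3 had MDA-MB-231 markers at 1.93 to 6.05%. No sample of SUM159PT or MDA-MB-231 was above 1.57%. Calls that use HS578T siNRP1#5 are therefore also given after other-line reads in that proportion were subtracted, or from SUM159PT and MDA-MB-231 alone. The subtraction used the non-targeting control profile of the other line in the same modality, and no knockdown profile was tried. In bulk RNA, fewer cells expressing a gene and less RNA per cell cannot be told apart.

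In the non-targeting controls, PLXNB2, PLXNA1 and PLXND1 made up most plexin mRNA in all 3 lines, and the lines differed most in PLXND1, PLXNA4 and PLXNC1. Levels are compared between genes in TPM, which is scaled for transcript length, over the 6 controls of a line (3 siNT and 3 shNT). The summed TPM of the 9 plexins had a median of 254 for SUM159PT, 243 for MDA-MB-231 and 205 for HS578T. PLXNB2, a widely expressed class B receptor, led in MDA-MB-231 at 95.3 ± 13.8 TPM (SD, n = 6). It averaged 77.3 ± 31.8 TPM in SUM159PT, where its mean was above that of PLXNA1 in siNT (105.1 against 83.2 TPM) and below it in shNT (49.4 against 54.7 TPM), with overlapping ranges in both. HS578T was led by PLXND1, the receptor of SEMA3E, at 121 ± 53.6 TPM, which was 54.6% of all plexin TPM in that line on average.

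The order over all 6 controls below the leading gene was much alike, and in MDA-MB-231 it was the same in siNT and shNT. In SUM159PT, PLXNA1 (69.0 TPM), PLXND1 (41.1 TPM) and PLXNA3 (26.4 TPM) came next, and among these first 4 genes each overlapped its neighbour in range. PLXNB1 (10.3 TPM) and PLXNB3 (6.35 TPM) followed and overlapped, then PLXNA2 (2.28 TPM), which overlapped neither neighbour, and last PLXNC1 (0.528 TPM) and PLXNA4 (0.25 TPM), which overlapped. That last pair stood apart in siNT, with PLXNC1 at 0.727 TPM and PLXNA4 at 0.0667 TPM, and was in the other order in shNT, at 0.33 and 0.433 TPM with overlapping ranges. In MDA-MB-231, PLXNB2 stood clear of PLXND1 (57.5 TPM) and PLXNA1 (43.4 TPM), which overlapped.
PLXNA3 (14.0 TPM), PLXNB1 (7.66 TPM), PLXNB3 (6.72 TPM) and PLXNA2 (4.11 TPM) formed a run of overlapping neighbours in MDA-MB-231, with PLXNC1 (1.32 TPM) and PLXNA4 (0.167 TPM) each apart below. In HS578T, PLXNB2 (37.4 TPM) overlapped PLXNA1 (30.6 TPM), and PLXNA3 (10.8 TPM), PLXNB1 (5.64 TPM), PLXNB3 (4.80 TPM), PLXNA4 (2.5 TPM) and PLXNA2 (1.71 TPM) overlapped in turn. PLXNC1 was lowest in HS578T at 0.06 TPM. In shNT of that line PLXNB3 (4.01 TPM) averaged above PLXNB1 (3.19 TPM) and PLXNA2 (2.39 TPM) above PLXNA4 (2.25 TPM), the reverse of siNT.

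**Figure D1:**
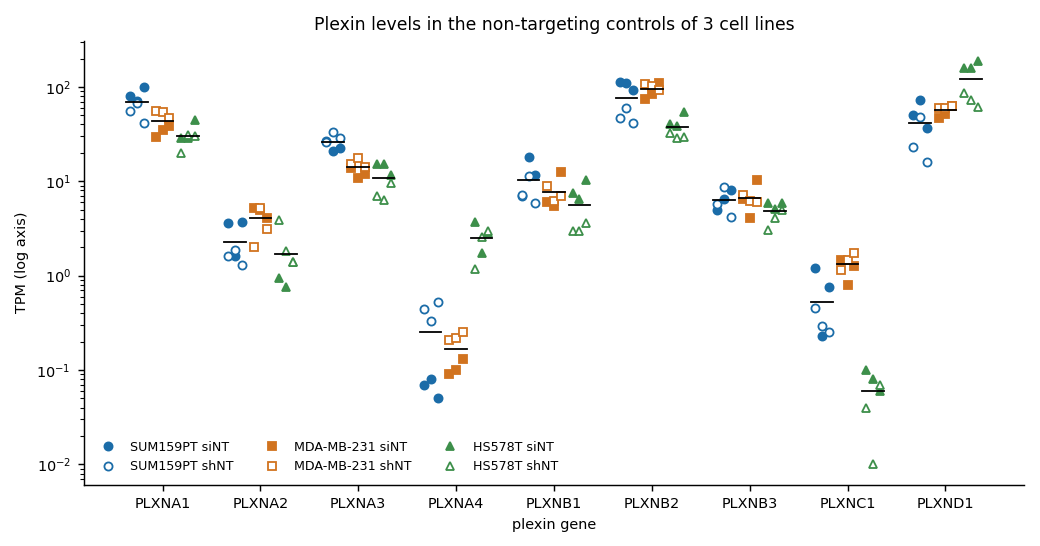
TPM (log axis) of each plexin in each non-targeting control sample of the 3 cell lines, with siNT as filled and shNT as open points and a bar at the mean of 6. PLXND1 is highest in HS578T (mean 121 TPM), while PLXNC1 is lowest there (mean 0.06 TPM).

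Between lines, 14 of 27 tests of a plexin passed an adjusted p of 0.05 in the controls (edgeR's quasi-likelihood test over all 52 samples), or 51.9%, where 64.4% of tests over all genes passed, so a difference between lines was no more frequent in plexins than in other genes. The counts were 4 of 9 for SUM159PT against MDA-MB-231 (59.4% of all genes), 4 for HS578T against MDA-MB-231 (70.2%) and 6 for HS578T against SUM159PT (63.5%). PLXNA4, a class A receptor that pairs with neuropilins for SEMA3A, was higher in HS578T than in MDA-MB-231 by 4.71 on the log2 scale (SE 0.320, adjusted p = 1.49e-16) and than in SUM159PT by 4.66 (SE 0.321, adjusted p = 3.90e-16). PLXNC1, the receptor of SEMA7A, ran the other way, with log2 differences of -4.25 (SE 0.305) and -2.99 (SE 0.303) for HS578T against MDA-MB-231 and SUM159PT. PLXNC1 was also lower in SUM159PT than in MDA-MB-231, at -1.26 (SE 0.248, adjusted p = 2.87e-05), which was -1.84 from shNT alone and -0.68 from siNT alone, where it did not pass (adjusted p = 0.0955).
PLXND1 was higher in HS578T than in MDA-MB-231 (log2 difference 1.82, SE 0.269) and SUM159PT (2.15, SE 0.272). SUM159PT had more PLXNA1 than MDA-MB-231 (1.07, SE 0.197), at 1.65 from siNT alone and 0.48 from shNT alone, where it did not pass (adjusted p = 0.152), and HS578T had less of it than SUM159PT (-0.79, SE 0.196). PLXNA3 showed the same order, at 1.22 (SE 0.142) for SUM159PT against MDA-MB-231 and -0.98 (SE 0.141) for HS578T against SUM159PT. PLXNB1 was higher in SUM159PT than in MDA-MB-231 by 0.75 (SE 0.205, adjusted p = 0.00161), a call lost in 1 of the 3 fits that left out a replicate number, by limma on log2(TPM + 1) and from shNT alone (0.21, adjusted p = 0.580, against 1.297 from siNT alone). PLXNB2 was lower in HS578T than in both others (-0.56 and -0.51), and both calls were lost in 1 or 2 of the 3 fits that left out a replicate number (adjusted p up to 0.0583 and 0.154). Against MDA-MB-231 it passed from shNT alone (-0.92) and not from siNT alone (-0.19, adjusted p = 0.552), and against SUM159PT from siNT alone (-0.79) and not from shNT alone (-0.24, adjusted p = 0.483). Over all controls PLXNA2 and PLXNB3 passed in none of the 3 comparisons by edgeR, with differences between -0.56 and 0.31.
The siNT and shNT samples gave opposite signs for PLXNA2. HS578T against SUM159PT was -1.07 (adjusted p = 0.0138) from siNT alone and 1.07 (adjusted p = 0.0141) from shNT alone, and HS578T against MDA-MB-231 was -1.46 (adjusted p = 0.000819) and 0.35 (adjusted p = 0.419). For SUM159PT against MDA-MB-231, PLXND1 was at 0.36 (adjusted p = 0.441) from siNT and -1.03 (adjusted p = 0.0222) from shNT, and PLXNB2 was at 0.60 (adjusted p = 0.0632) and -0.68 (adjusted p = 0.0363). In all, 17 of 27 tests passed from siNT alone and 14 from shNT alone, 9 of them in both with the same sign, and these 9 were also called over all controls. They were the differences of PLXNA4, PLXNC1 and PLXND1 between HS578T and both other lines, those of PLXNA3 between SUM159PT and both others, and that of PLXNA1 between SUM159PT and HS578T.

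NRP1 knockdown lowered more plexins than it raised. Averaged over the 3 lines with equal weight, siNRP1#3 lowered 5 of 9 plexins and raised none, where 21.3% of all 23416 genes were called and 11.1% were lower. With siNRP1#5, 5 fell and 1 rose (30.3% of all genes called, 13.2% lower). The count for shNRP1#3 was 4 lower and none higher (5.91% called, 3.25% lower), and for shNRP1#5 it was 5 lower and 1 higher (15.5% called, 8.19% lower). The median log2 fold change of the 9 plexins was -0.54, -0.58, -0.26 and -0.63 for the 4 sequences in that order, beside medians over all genes of 0.02, 0.05, 0.05 and 0.04. In all, 21 of 36 averaged tests passed, against 18.3% of tests over all genes. The 21 calls became 12 without replicate 1 in every group and 12 without replicate 2. All 21 passed after subtraction of other-line reads, where the siNRP1#5 averages were -0.61 for PLXNA1, -0.63 for PLXNA3, -1.67 for PLXNB1 and -1.04 for PLXNB3. From SUM159PT and MDA-MB-231 alone those 4 were -0.67, -0.52, -1.52 and -1.19 and passed, while 6 of the 21 calls were lost. These 6 were PLXND1 (-0.72, adjusted p = 0.0537) and PLXNA4 (-0.58, 0.121) with siNRP1#3, PLXNA2 with siNRP1#5 (0.43, 0.162), PLXNA1 (-0.50, 0.129) and PLXNC1 (-0.71, 0.0507) with shNRP1#3, and PLXNA3 with shNRP1#5 (-0.45, 0.0546). The #3 and #5 effects of one modality share their control samples.

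Line by line, 31 of 108 comparisons of a plexin with its control passed (28.7%, with 11.3% of tests over all genes), 27 of them lower and 4 higher. In SUM159PT the plexins called were 3 of 9 with siNRP1#3 (8.66% of all genes), 5 with siNRP1#5 (17.9%), none with shNRP1#3 (1.4%) and 2 with shNRP1#5 (5.94%). In MDA-MB-231 they were 2 with siNRP1#3 (25.7%), 4 with siNRP1#5 (29.4%), 1 with shNRP1#3 (3.65%) and 8 with shNRP1#5 (20.7%). HS578T had 2 with siNRP1#3 (4.65%), 4 with siNRP1#5 (18.7%), none with shNRP1#3 (0.0356%) and none with shNRP1#5 (0.946%). When the 2 groups of a comparison were fitted alone, 9 of the 31 calls did not pass. They were the 5 of SUM159PT siNRP1#5 (adjusted p = 0.0591 to 0.131), PLXNB2 in SUM159PT siNRP1#3 (0.0857), PLXNA1 in SUM159PT shNRP1#5 (0.0975), PLXNB1 in MDA-MB-231 siNRP1#5 (0.0517) and PLXNA2 in MDA-MB-231 shNRP1#5 (0.0538). In MDA-MB-231 the share of plexins called was thus near that of all genes with siNRP1#3 and above it with siNRP1#5 (4 of 9 against 29.4%). The share with shNRP1#5 in that line was the highest of the 12.

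**Figure D2:**
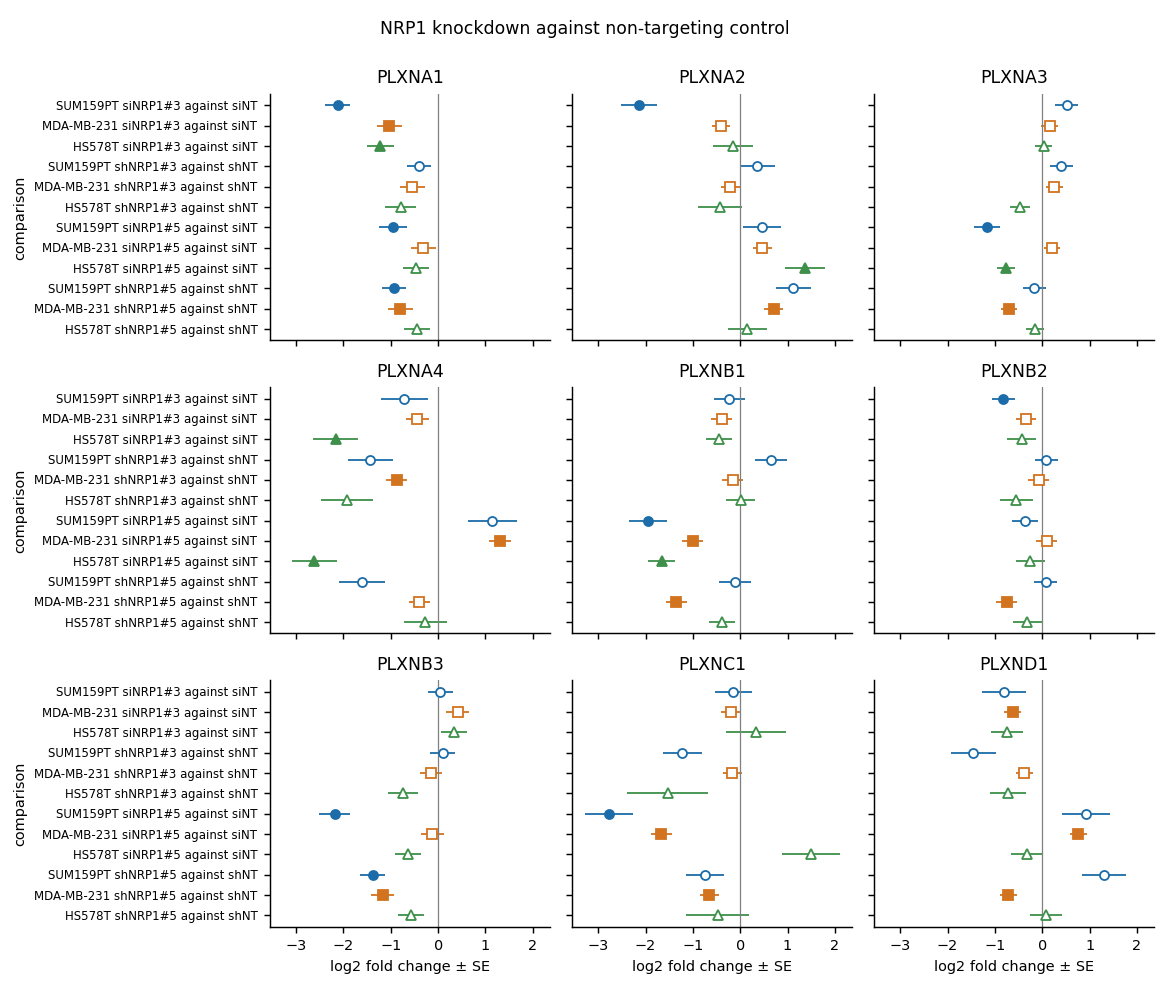
Log2 fold change (± SE) of each plexin in the 12 comparisons of an NRP1-targeting sequence with the non-targeting control of its own cell line and modality, with filled points for an edgeR adjusted p under 0.05. PLXNA1 lies below 0 in all 12 comparisons, and PLXNA2 lies on both sides.

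PLXNA1, a class A receptor that pairs with NRP1 for SEMA3A and also binds SEMA6D, was the member lowered by all 4 sequences. In SUM159PT its level was 596, 574 and 620.4 CPM (counts normalised to a common library size) in siNT and 100.1, 180.0 and 130.4 CPM in siNRP1#3. The 2 siNRP1#5 samples had 298 and 313 CPM. Every knockdown sample lay below every siNT sample, with siNRP1#3 the lowest, and the log2 fold changes were -2.12 (SE 0.261, adjusted p = 0.000216) with siNRP1#3 and -0.96 (SE 0.289, adjusted p = 0.0310) with siNRP1#5. The siNRP1#5 call was lost without either of its samples (adjusted p = 0.0987 and 0.103) or without siNT replicate 1 (0.0629) or 3 (0.0578).
In the shRNA arm of SUM159PT, PLXNA1 was at 348, 416 and 259 CPM in shNT, 258, 277 and 232 CPM in shNRP1#3 and 229.7, 114.4 and 179 CPM in shNRP1#5. shNRP1#3 overlapped the control, while shNRP1#5 did not (-0.94, SE 0.253, adjusted p = 0.0357). That shNRP1#5 call was lost without any 1 of 4 samples, shNRP1#5 replicate 2 (-0.71, adjusted p = 0.186) or 3 (-0.96, 0.0691), or shNT replicate 1 (-0.92, 0.111) or 2 (-0.77, 0.154).

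In MDA-MB-231, PLXNA1 was at 150, 195 and 226 CPM in siNT, 71.1, 72.1 and 132 CPM in siNRP1#3 and 110, 108 and 238 CPM in siNRP1#5. Only siNRP1#3 lay wholly below siNT (-1.03, SE 0.267, adjusted p = 0.00952), and without its replicate 1 the adjusted p was 0.0513. shNT had 253, 258 and 222 CPM, shNRP1#3 167, 175 and 160 CPM and shNRP1#5 155, 132 and 131 CPM. Both shRNA groups lay below the control in every sample, and shNRP1#5 passed (-0.80, SE 0.265, adjusted p = 0.0408) but shNRP1#3 did not (-0.54, SE 0.264, adjusted p = 0.313). The shNRP1#5 call was lost in 8 of 18 fits that left out 1 sample, namely any shNRP1#5 or shNT sample, shNRP1#3 replicate 2 or siNT replicate 2 (-0.88 to -0.76, adjusted p up to 0.124).
In HS578T, siNT had 256, 253 and 444 CPM of PLXNA1, siNRP1#3 had 110, 109 and 189 CPM and siNRP1#5 had 231, 193 and 267 CPM. siNRP1#3 was below siNT in every sample (-1.22, SE 0.282, adjusted p = 0.0202), and the call was lost without siNRP1#3 replicate 1 (-1.09, adjusted p = 0.109) or 2 (-1.08, 0.0724) or siNT replicate 3 (-0.90, 0.0974). Neither shRNA group of HS578T passed, although shNRP1#3 lay below the control in every sample, with log2 fold changes of -0.79 for shNRP1#3 (123 and 128 CPM) and -0.45 for shNRP1#5 (124, 186 and 165 CPM) against shNT at 163, 265 and 213 CPM. Averaged over lines, PLXNA1 changed by -1.47 (SE 0.163, adjusted p = 4.83e-09) with siNRP1#3, -0.59 (SE 0.167) with siNRP1#5, -0.58 (SE 0.167) with shNRP1#3 and -0.74 (SE 0.160) with shNRP1#5. The siNRP1#3 value held without any 1 replicate number. The others were lost without replicate 2 (adjusted p = 0.0979, 0.402 and 0.139), and shNRP1#3 also without replicate 1 (0.194).

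**Figure D3:**
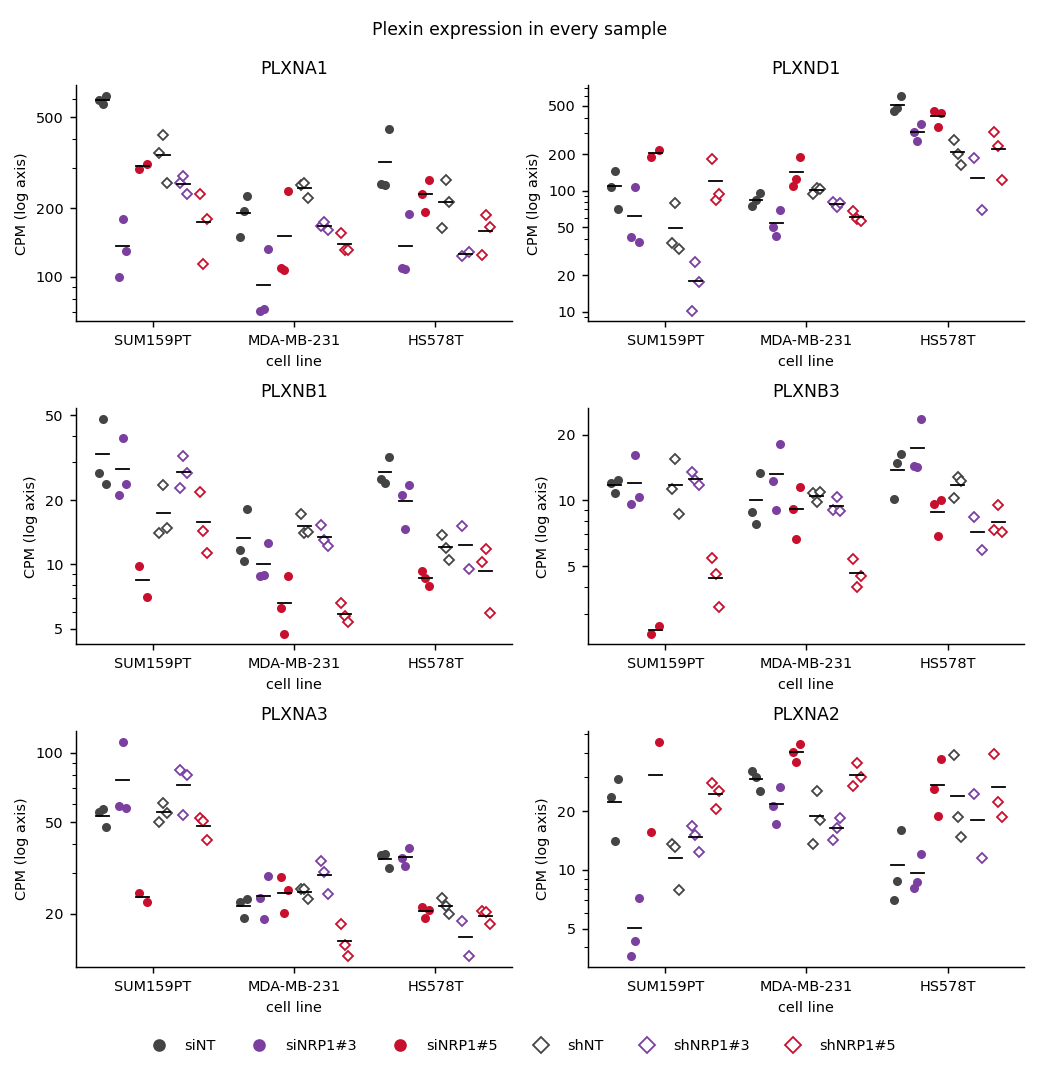
Normalised CPM (log axis) in every sample for PLXNA1, PLXND1, PLXNB1, PLXNB3, PLXNA3 and PLXNA2 by cell line, with non-targeting controls in grey, #3 in purple and #5 in red, siRNA as filled circles, shRNA as open diamonds and a bar at each group mean. In SUM159PT the siNRP1#3 samples have 100.1 to 180.0 CPM of PLXNA1, below the 574 to 620.4 CPM of siNT.

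PLXNA2, a class A receptor for SEMA3A with neuropilins and for SEMA6A, was lowered by siNRP1#3 and raised by #5 on average. In SUM159PT it was at 23.6, 14.1 and 29.2 CPM in siNT and fell to 3.60, 4.33 and 7.19 CPM with siNRP1#3, whereas the siNRP1#5 samples had 15.6 and 45.5 CPM. The siNRP1#3 samples were all below the control (-2.14, SE 0.382, adjusted p = 0.00296) and those of siNRP1#5 spread around it (0.46, adjusted p = 0.455). In shRNA samples of the same line, shNT had 13.6, 13.1 and 7.89 CPM, shNRP1#3 16.8, 15.1 and 12.4 CPM and shNRP1#5 27.8, 20.4 and 25.3 CPM. shNRP1#5 was above the control in every sample but did not pass (1.12, SE 0.369, adjusted p = 0.0889).
In MDA-MB-231 the siNT samples had 32.3, 30.1 and 25.5 CPM of PLXNA2, siNRP1#3 21.3, 17.3 and 26.5 CPM and siNRP1#5 40.2, 35.9 and 44.1 CPM. Neither passed (-0.41 and 0.47, adjusted p = 0.131 and 0.0756), although siNRP1#5 was above siNT in every sample. shNRP1#5, at 26.9, 35.3 and 29.9 CPM against 13.6, 25.4 and 17.9 CPM in shNT, passed and did not overlap (0.70, SE 0.194, adjusted p = 0.0151). This call was lost without shNRP1#5 replicate 2 (0.59, adjusted p = 0.0797) or shNT replicate 1 (0.52, 0.0779) or 3 (0.66, 0.0685). shNRP1#3 was at 14.3, 16.4 and 18.4 CPM, within the range of shNT.

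In HS578T, PLXNA2 was at 7.04, 8.79 and 16.1 CPM in siNT, 8.05, 8.70 and 12.0 CPM in siNRP1#3 and 26.1, 19.0 and 37.1 CPM in siNRP1#5. The siNRP1#5 samples lay above both other groups (1.36, SE 0.422, adjusted p = 0.0333) and the value after subtraction of other-line reads was 1.39 (adjusted p = 0.0475). The call was lost without siNRP1#5 replicate 1 (1.39, adjusted p = 0.0595) or 3 (1.08, 0.135) or siNT replicate 1 (1.14, 0.107) or 2 (1.24, 0.122). In the shRNA arm, 38.6, 18.7 and 14.8 CPM in shNT overlapped 24.5 and 11.4 CPM in shNRP1#3 and 39.1, 22.2 and 18.6 CPM in shNRP1#5. On average over lines PLXNA2 changed by -0.91 (SE 0.212, adjusted p = 0.00148) with siNRP1#3, 0.76 (SE 0.217, adjusted p = 0.00655) with siNRP1#5 and 0.64 (SE 0.209, adjusted p = 0.0304) with shNRP1#5, and by -0.09 with shNRP1#3, which did not pass. From SUM159PT and MDA-MB-231 alone the siNRP1#5 value was 0.43 and no longer passed (adjusted p = 0.162). It was also lost without replicate 3 (0.51, adjusted p = 0.121), and the shNRP1#5 value without any 1 replicate number (adjusted p = 0.0978 to 0.109).

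PLXNA3, a class A receptor that serves SEMA3F with NRP2, fell with #5. In SUM159PT it was at 55.2, 57.0 and 47.5 CPM in siNT, 58.8, 112 and 57.7 CPM in siNRP1#3 and 24.6 and 22.6 CPM in siNRP1#5. The siNRP1#5 samples were below all others of the siRNA arm (-1.16, SE 0.281, adjusted p = 0.0107), and without replicate 3 of that group the adjusted p was 0.0571. shNT at 50.1, 60.3 and 54.9 CPM overlapped shNRP1#5 at 51.8, 50.4 and 41.7 CPM.
In HS578T, 36.1, 36.2 and 31.7 CPM in siNT fell to 21.5, 19.2 and 20.9 CPM in siNRP1#5 (-0.76, SE 0.186, adjusted p = 0.00997; -0.80 and 0.0159 after subtraction), while siNRP1#3 had 35.1, 32.4 and 38.6 CPM. The MDA-MB-231 siRNA groups overlapped between 19.1 and 29.1 CPM, and its shNRP1#5 samples had 18.1, 14.6 and 13.1 CPM against 25.7, 25.7 and 23.3 CPM in shNT. That difference passed (-0.70, SE 0.176, adjusted p = 0.0088), and without shNRP1#5 replicate 3 it was -0.60 (adjusted p = 0.0574). Averaged over lines PLXNA3 changed by -0.58 (SE 0.120, adjusted p = 0.000234) with siNRP1#5 and -0.35 (SE 0.114, adjusted p = 0.0310) with shNRP1#5, the latter lost without any 1 replicate number. With #3 it changed by 0.23 and 0.07 and did not pass.

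PLXNA4 was expressed mainly in HS578T. There its level was 36.1, 23.4 and 40.2 CPM in siNT, 6.78, 7.49 and 8.03 CPM in siNRP1#3 and 4.55, 4.80 and 6.95 CPM in siNRP1#5. Both knockdown groups were far below the control, by -2.16 (SE 0.474, adjusted p = 0.0156) and -2.61 (SE 0.482, adjusted p = 0.00185), the latter -2.31 (0.0057) after subtraction. The siNRP1#3 call was lost without siNRP1#3 replicate 1 (-2.10, adjusted p = 0.0792) or 2 (-2.16, 0.0502) or siNT replicate 3 (-1.999, 0.0530). In the shRNA arm of HS578T shNT had 12.7, 32.5 and 28.8 CPM, shNRP1#3 3.76 and 9.54 CPM and shNRP1#5 7.86, 20.7 and 33.8 CPM. The shNRP1#3 samples were the lowest but did not pass (-1.92, SE 0.545, adjusted p = 0.309).
In MDA-MB-231, where PLXNA4 was near 1 CPM, siNRP1#5 was higher (1.87, 2.03 and 1.59 CPM) than siNT (0.687, 0.849 and 0.71 CPM) in every sample, with a log2 fold change of 1.305 (SE 0.227, adjusted p = 0.000245). shNRP1#3, at 0.842, 0.91 and 0.809 CPM against 1.21, 1.63 and 1.88 CPM in shNT, was lower (-0.88, SE 0.222, adjusted p = 0.0319), and this was lost without any shNRP1#3 sample or without shNT replicate 2 or 3 (adjusted p = 0.0833 to 0.167). SUM159PT values were between 0.327 and 2.18 CPM and passed in none of its 4 comparisons by edgeR, with shNRP1#5 nearest (-1.60, SE 0.481, adjusted p = 0.0595). The averages were -1.11 (SE 0.251, adjusted p = 0.000980) with siNRP1#3, -1.40 (SE 0.250, adjusted p = 0.000251) with shNRP1#3 and -0.76 (SE 0.234, adjusted p = 0.0215) with shNRP1#5. From SUM159PT and MDA-MB-231 alone the siNRP1#3 average was -0.58 and did not pass (adjusted p = 0.121). For siNRP1#5 the average was -0.06, and it was 1.19 (adjusted p = 0.00112) from SUM159PT and MDA-MB-231 alone. The shNRP1#5 average was lost without replicate 1 (adjusted p = 0.0868) or 2 (0.272).

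PLXNB1, the class B receptor of SEMA4D, which couples to RhoA through PDZ-RhoGEF and LARG, fell with siNRP1#5 in all 3 lines. In SUM159PT it was at 26.9, 48.0 and 23.7 CPM in siNT, 21.2, 39.2 and 23.7 CPM in siNRP1#3 and 9.81 and 7.08 CPM in siNRP1#5. The siNRP1#5 samples were below every other sample of the arm (-1.95, SE 0.403, adjusted p = 0.00463). In MDA-MB-231 the siRNA groups were at 11.6, 10.3 and 18.1 CPM (siNT), 8.84, 8.89 and 12.6 CPM (siNRP1#3) and 6.27, 4.75 and 8.80 CPM (siNRP1#5).
Here too siNRP1#5 lay below both other groups, by -1.001 (SE 0.226, adjusted p = 0.00241) against siNT. HS578T had 25.1, 24.1 and 31.9 CPM in siNT, 21.1, 14.6 and 23.5 CPM in siNRP1#3 and 9.30, 8.66 and 7.89 CPM in siNRP1#5 (-1.65, SE 0.283, adjusted p = 0.00114; -1.92 and 0.00113 after subtraction). All 3 siNRP1#5 calls held without any 1 sample. In the shRNA arm, MDA-MB-231 shNRP1#5 at 6.59, 5.71 and 5.36 CPM was below shNT at 17.1, 14.0 and 14.1 CPM (-1.35, SE 0.225, adjusted p = 0.000443), and this call also held without any 1 sample.
shNRP1#3 was at 15.3, 12.97 and 12.2 CPM in MDA-MB-231, overlapping shNT. In SUM159PT, shNRP1#5 (21.8, 14.3 and 11.3 CPM) overlapped shNT (14.1, 23.6 and 14.8 CPM), as it did in HS578T (10.2, 11.8 and 5.94 CPM against 13.8, 12.0 and 10.5 CPM). Averaged over lines PLXNB1 changed by -1.54 (SE 0.181, adjusted p = 1.38e-08) with siNRP1#5 and -0.63 (SE 0.168, adjusted p = 0.00853) with shNRP1#5. The shNRP1#5 average was lost without replicate 2 (-0.59, adjusted p = 0.0762) or 3 (-0.54, 0.0657). With #3 the averages were -0.36 (siRNA, adjusted p = 0.120) and 0.17 (shRNA).

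PLXNB2, a receptor of SEMA4C and the most abundant class B plexin, passed in 2 of 12 comparisons with a control, the fewest of the 9. In SUM159PT it was at 450, 393 and 349 CPM in siNT, 179, 306 and 185 CPM in siNRP1#3 and 288 and 322 CPM in siNRP1#5. The siNRP1#3 samples lay below siNT (-0.82, SE 0.243, adjusted p = 0.0449), and the call was lost in 9 of 17 fits that left out 1 sample, namely siNRP1#3 replicate 1 or 3, any siNT sample, shNRP1#3 replicate 1 or 3, shNRP1#5 replicate 3 or shNT replicate 1 (-0.91 to -0.68, adjusted p up to 0.192). MDA-MB-231 shNRP1#5, at 183, 187 and 151 CPM against 309, 305 and 267 CPM in shNT, was lower (-0.75, SE 0.221, adjusted p = 0.0229).
It was lost without shNRP1#5 replicate 2 (-0.81, adjusted p = 0.0514) or 3 (-0.66, 0.101) or shNT replicate 1 (-0.71, 0.0619) or 2 (-0.72, 0.0679). In the remaining 10 comparisons PLXNB2 did not pass, with log2 fold changes of -0.55 to 0.09. The average changed by -0.54 (SE 0.156, adjusted p = 0.00953) with siNRP1#3, which was lost without replicate 1 (-0.51, adjusted p = 0.0933), and by -0.34 to -0.18 with the other 3 sequences, none of which passed.

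PLXNB3, the class B receptor of SEMA5A, fell with #5 in SUM159PT by both modalities. There siNT had 12.0, 10.8 and 12.4 CPM, siNRP1#3 9.57, 16.1 and 10.4 CPM and siNRP1#5 2.45 and 2.66 CPM. The log2 fold change with siNRP1#5, whose samples were the lowest for this gene among all 52, was -2.19 (SE 0.325, adjusted p = 0.000750). In the shRNA arm, shNT had 11.3, 15.4 and 8.64 CPM, shNRP1#3 13.5, 12.4 and 11.8 CPM and shNRP1#5 5.45, 4.59 and 3.25 CPM (-1.38, SE 0.269, adjusted p = 0.00550). In each arm the #5 samples lay below both other groups.
In MDA-MB-231 the siRNA groups overlapped, from 6.66 to 18.1 CPM, and siNRP1#5 changed by -0.12 (adjusted p = 0.739). shNRP1#5 fell there, from 10.8, 9.82 and 10.9 CPM in shNT to 5.40, 4.01 and 4.49 CPM (-1.17, SE 0.239, adjusted p = 0.00224), and shNRP1#3 at 8.99, 10.4 and 8.89 CPM overlapped shNT. These 3 calls held without any 1 sample. By limma on log2(TPM + 1) the SUM159PT shNRP1#5 call was lost (-0.62, adjusted p = 0.354). The SUM159PT siNRP1#5 call was lost when only the 2 groups were fitted by edgeR (adjusted p = 0.0591). HS578T had 10.1, 14.9 and 16.3 CPM in siNT and 9.59, 6.88 and 10.1 CPM in siNRP1#5 (-0.64, adjusted p = 0.115), and 10.2, 12.8 and 12.2 CPM in shNT and 7.29, 9.51 and 7.18 CPM in shNRP1#5 (-0.57, adjusted p = 0.270). Neither passed. On average PLXNB3 changed by -0.99 (SE 0.162, adjusted p = 8.00e-06) with siNRP1#5 and -1.05 (SE 0.153, adjusted p = 4.43e-06) with shNRP1#5, and both held without any 1 replicate number. With #3 it changed by 0.25 (siRNA) and -0.26 (shRNA) and did not pass.

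PLXNC1 was low in all lines and fell with siNRP1#5 in SUM159PT and MDA-MB-231. In SUM159PT it was at 3.36, 1.26 and 1.85 CPM in siNT, 1.68, 2.29 and 1.86 CPM in siNRP1#3 and 0.424 and 0.212 CPM in siNRP1#5. The siNRP1#5 samples were the lowest (-2.77, SE 0.512, adjusted p = 0.00233), with only 11 and 14 counts. MDA-MB-231 had 4.05, 2.45 and 3.91 CPM in siNT, 3.12, 3.26 and 2.55 CPM in siNRP1#3 and 1.299, 1.04 and 0.889 CPM in siNRP1#5, again the lowest group (-1.66, SE 0.219, adjusted p = 1.37e-05).
shNRP1#5 was also lower in MDA-MB-231, at 2.04, 2.00 and 2.27 CPM against 3.13, 3.12 and 3.74 CPM in shNT (-0.65, SE 0.203, adjusted p = 0.0286), a call lost without any shNRP1#5 sample or without shNT replicate 2 or 3 (-0.72 to -0.56, adjusted p up to 0.125). In HS578T, PLXNC1 was at 0.341, 0.292 and 0.0315 CPM in siNT and 0.707, 0.678 and 0.495 CPM in siNRP1#5. This difference did not pass (1.49, SE 0.606, adjusted p = 0.0957), and after subtraction the gene had too few counts to be tested in that line. Taken at the siNT level of MDA-MB-231 (3.47 CPM), the MDA-MB-231 share of these 3 samples would bring 0.752, 0.673 and 0.459 CPM of PLXNC1. The gene was lower in MDA-MB-231 siNRP1#5 (1.08 CPM), and the source of the PLXNC1 reads in these samples was not tested. On average over lines PLXNC1 changed by -0.99 (SE 0.242, adjusted p = 0.00152) with siNRP1#5, which was -2.74 (adjusted p = 3.02e-07) after subtraction and -2.27 (8.55e-08) from SUM159PT and MDA-MB-231 alone. It was lost without replicate 1 (-0.77, adjusted p = 0.0881). With shNRP1#3 the average was -0.98 (SE 0.282, adjusted p = 0.0277), lost without replicate 1 (0.333) or 2 (0.353), and with shNRP1#5 -0.65 (adjusted p = 0.0615).

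PLXND1, which binds SEMA3E directly and other class 3 semaphorins with neuropilins, was lowered by #3 and not by #5 on average. In SUM159PT it was at 108, 146 and 70.6 CPM in siNT, 41.1, 106 and 37.5 CPM in siNRP1#3 and 190 and 217 CPM in siNRP1#5. siNRP1#3 overlapped the control and siNRP1#5 lay above it, and neither passed (-0.80 and 0.92, adjusted p = 0.306 and 0.225). In the shRNA arm shNRP1#3 lay below and shNRP1#5 above the control in every sample, and again neither passed, with 37.0, 78.6 and 33.1 CPM in shNT, 10.2, 25.8 and 17.8 CPM in shNRP1#3 and 183, 82.9 and 94.2 CPM in shNRP1#5 (-1.45 and 1.31, adjusted p = 0.176 and 0.129).
In MDA-MB-231 siNT had 74.6, 82.9 and 95.7 CPM of PLXND1, siNRP1#3 50.3, 42.5 and 68.5 CPM and siNRP1#5 109, 126 and 190 CPM. The 3 groups did not overlap, and both differences passed, at -0.63 (SE 0.178, adjusted p = 0.0145) and 0.76 (SE 0.178, adjusted p = 0.00309). The siNRP1#3 call was lost without its replicate 1 (-0.59, adjusted p = 0.0583) or 2 (-0.48, 0.0801) or siNT replicate 3 (-0.53, 0.0576). shNRP1#5, at 68.3, 57.9 and 56.6 CPM, was lower than shNT at 94.3, 105 and 103 CPM (-0.72, SE 0.178, adjusted p = 0.00800), with shNRP1#3 at 80.2, 73.2 and 78.6 CPM (-0.38, adjusted p = 0.289).
In HS578T, PLXND1 was at 454, 478 and 603 CPM in siNT, 306, 258 and 352 CPM in siNRP1#3 and 454, 336 and 440 CPM in siNRP1#5. The shRNA groups were at 259, 201 and 161 CPM (shNT), 186 and 68.8 CPM (shNRP1#3) and 302, 232 and 123 CPM (shNRP1#5). No HS578T comparison with a control passed for PLXND1, and siNRP1#3 alone was below its control in every sample (-0.74, adjusted p = 0.224). The siNRP1#5 difference was -0.32 and became -0.03 after subtraction. The averages were -0.73 (SE 0.214, adjusted p = 0.0110) with siNRP1#3, -0.85 (SE 0.226, adjusted p = 0.0161) with shNRP1#3, 0.45 (adjusted p = 0.128) with siNRP1#5 and 0.21 (adjusted p = 0.580) with shNRP1#5. Both #3 averages were lost without replicate 1 (adjusted p = 0.0684 and 0.0515), siNRP1#3 also without replicate 3 (0.0652) and shNRP1#3 without replicate 2 (0.298). The siNRP1#5 average from SUM159PT and MDA-MB-231 alone was 0.80 (adjusted p = 0.0320).

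Sequence #5 was also set directly against #3, without the control. NRP1 itself differed by -4.18 in MDA-MB-231, -2.22 in SUM159PT and -1.46 in HS578T siRNA. In shRNA it differed by -0.99 in SUM159PT, and by 0.43 in MDA-MB-231 and -0.50 in HS578T, where it did not pass. Of 54 comparisons of a plexin 25 passed (46.3%, with 18.3% of tests over all genes), 11 with #5 higher and 14 with #5 lower. By line and modality they were 8 of 9 plexins in SUM159PT siRNA (29.7% of all genes), 2 in SUM159PT shRNA (8.71%), 6 in MDA-MB-231 siRNA (39.0%), 5 in MDA-MB-231 shRNA (14.2%), 4 in HS578T siRNA (18.1%) and none in HS578T shRNA (0.544%). PLXNA2 was higher with #5 in all 6 comparisons and passed in 4, at 2.60 in SUM159PT siRNA, 0.88 and 0.91 in MDA-MB-231 siRNA and shRNA and 1.51 in HS578T siRNA. PLXNB1 was lower with #5 in all 6 and passed in 4, at -1.73 in SUM159PT siRNA, -0.62 and -1.19 in MDA-MB-231 siRNA and shRNA and -1.20 in HS578T siRNA.
PLXNB3 passed as lower in 4 of 6, at -2.23 and -1.48 in SUM159PT siRNA and shRNA, -1.02 in MDA-MB-231 shRNA and -0.98 in HS578T siRNA, and PLXNA3 as lower in 3, at -1.69 in SUM159PT siRNA, -0.96 in MDA-MB-231 shRNA and -0.79 in HS578T siRNA. PLXND1 was higher with #5 in SUM159PT siRNA (1.72) and shRNA (2.76) and in MDA-MB-231 siRNA (1.39). PLXNC1 was lower in SUM159PT (-2.63) and MDA-MB-231 siRNA (-1.47), while PLXNA4 (1.86 and 1.74) and PLXNA1 (1.16 and 0.72) were higher in the same pair of comparisons. PLXNB2 passed in 1, lower in MDA-MB-231 shRNA (-0.68). After subtraction the 4 HS578T siRNA calls were PLXNA2 at 1.61 (adjusted p = 0.0240), PLXNA3 at -0.86 (0.0101), PLXNB1 at -1.49 (0.00425) and PLXNB3 at -1.045 (0.0290). When only the 2 groups were fitted, PLXNA1 and PLXNB1 in MDA-MB-231 siRNA did not pass (adjusted p = 0.174 and 0.118). Of the 25 calls, 16 held without any 1 sample. Among the others, PLXNB2 was lost in 12 of 18 fits (adjusted p up to 0.195), PLXNA1 in MDA-MB-231 in 8 of 18 with 0.26 without siNRP1#5 replicate 3, and PLXND1 in SUM159PT siRNA in 4 of 17, those without siNRP1#3 replicate 1 or 3 or either siNRP1#5 sample (adjusted p up to 0.0789). PLXNA4 in SUM159PT was 1.08 without siNRP1#5 replicate 3 (adjusted p = 0.231). PLXNB1 in MDA-MB-231 siRNA was lost without siNRP1#3 replicate 3 or siNRP1#5 replicate 1 or 2 (adjusted p up to 0.181), PLXNA2 in HS578T without siNRP1#3 replicate 1 or 2 or siNRP1#5 replicate 3 (up to 0.0983) and PLXNB3 in HS578T without siNRP1#3 replicate 3 or siNRP1#5 replicate 2 (up to 0.107). PLXNB1 in SUM159PT (0.0512 without siNRP1#5 replicate 3) and PLXNB3 in MDA-MB-231 (0.0535 without shNRP1#5 replicate 2) were just outside.

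**Figure D4:**
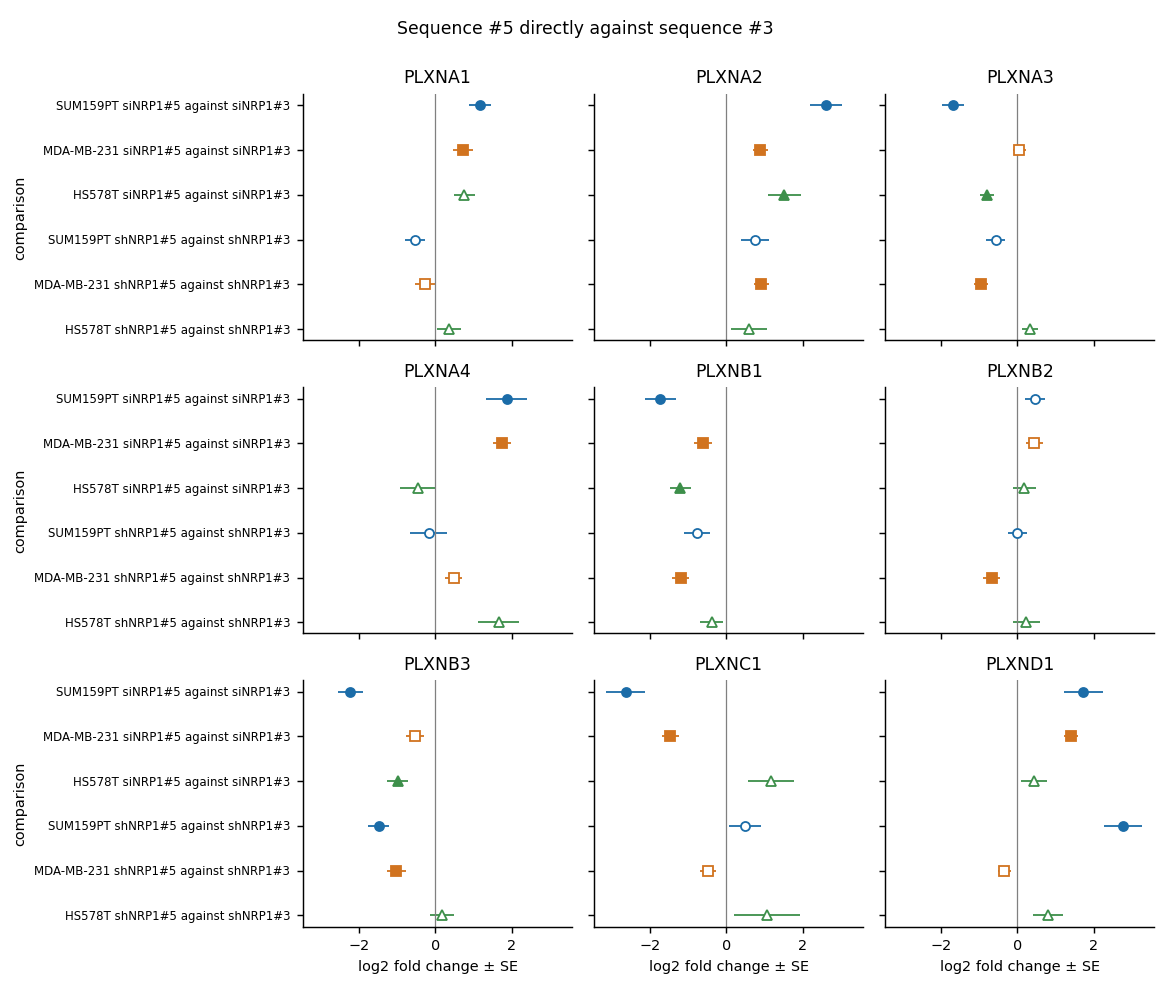
Log2 difference (± SE) of #5 against #3 for each plexin in the 6 direct comparisons, by cell line and modality, with filled points for an edgeR adjusted p under 0.05. PLXNA2 lies above 0 and PLXNB1 below 0 in all 6.

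Whether an effect differed between the 3 lines was tested in the model over all 52 samples, with the range of the 3 effects as its size. Of 36 tests 5 passed (13.9%, with 6.55% over all genes): 1 for siNRP1#3 (3.42% of all genes), 4 for siNRP1#5 (18.2%), none for shNRP1#3 (0.747%) and none for shNRP1#5 (3.81%). PLXNA2 differed with siNRP1#3 (range 2.00, adjusted p = 0.0333), as it fell most in SUM159PT, and this test did not pass after subtraction (0.0595) or without replicate 1 (0.423) or 2 (0.208). With siNRP1#5 the effects on PLXNA4 (range 3.89, adjusted p = 2.86e-06), PLXNC1 (4.29, 5.48e-06), PLXNB3 (2.06, 0.000925) and PLXNA3 (1.37, 0.00233) differed. PLXNA4 fell in HS578T and rose in MDA-MB-231, and PLXNB3 and PLXNA3 fell in SUM159PT and did not pass in MDA-MB-231 (-0.12 and 0.21). The PLXNC1 test did not pass after subtraction (range 2.01, adjusted p = 0.255), and PLXNA3 was lost without replicate 1 (1.33, 0.0578). After subtraction PLXNA4 (range 3.75, adjusted p = 4.40e-05), PLXNB3 (2.16, 0.00289) and PLXNA3 (1.45, 0.00383) passed. Without the HS578T samples, between SUM159PT and MDA-MB-231 alone, PLXNB3 (difference 2.14, adjusted p = 0.00388) and PLXNA3 (1.44, 0.0138) passed, and PLXNA4 (0.22, 0.903) and PLXNC1 (1.19, 0.180) did not, nor did PLXNA2 with siNRP1#3 (1.73, 0.0550).

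The same sequence delivered as siRNA or shRNA was compared as a difference of effects, siNRP1#5 against siNT minus shNRP1#5 against shNT. The modalities also differ in delivery, selection, time and the fall of NRP1 itself, which cannot be told apart. With siNRP1#5 and shNRP1#5, NRP1 changed by -4.88 and -1.05 in MDA-MB-231, -4.31 and -2.30 in SUM159PT and -2.66 and -2.09 in HS578T. Plexins passed in 6 of 27 tests (22.2%, with 8.75% over all genes), namely 1 of 9 in SUM159PT (2.51%), 5 in MDA-MB-231 (23.7%) and none in HS578T (0.854%). In MDA-MB-231, PLXND1 rose with siNRP1#5 and fell with shNRP1#5, a difference of 1.49 (SE 0.252, adjusted p = 0.000319). PLXNA4 (1.70, SE 0.312, adjusted p = 0.000622), PLXNB3 (1.05, SE 0.336, adjusted p = 0.0292) and PLXNA3 (0.91, SE 0.249, adjusted p = 0.0123) also had the higher effect with siRNA, and PLXNC1 had the lower one (-1.01, SE 0.297, adjusted p = 0.0187). The PLXNB3 call was lost in 7 of the 12 fits that left out 1 sample of its 4 groups (0.86 to 1.03, adjusted p up to 0.0835) and that of PLXNC1 without shNRP1#5 replicate 3 (-0.95, 0.0509) or siNT replicate 1 (-0.87, 0.0575). In SUM159PT, PLXNA4 differed by 2.75 (SE 0.707, adjusted p = 0.0486), a call lost in 14 of 17 fits that left out 1 sample.

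The non-targeting controls of the 2 modalities were not at one level. shNT against siNT passed in 8 of 27 tests of a plexin (29.6%, with 17.6% over all genes), 7 lower and 1 higher in shNT. SUM159PT had 3 (14.4% of all genes), with PLXNB2 at -1.14, PLXNC1 at -1.24 and PLXNA1 at -0.83. MDA-MB-231 had 2 (20.6%), PLXNA2 at -0.66 and PLXNA4 at 1.04, and HS578T had 3 (17.9%), PLXND1 at -1.29, PLXNB1 at -1.15 and PLXNA3 at -0.66. Only the PLXNA4 call held in every fit that left out 1 sample, and PLXNC1 in SUM159PT (adjusted p = 0.0882) and PLXNA3 in HS578T (0.0506) did not pass when the 2 groups were fitted alone. Each knockdown was therefore set against the control of its own modality.

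The deposited values split the 9 plexins into 93 of 387954 transcripts. In the controls a single protein-coding transcript held most of PLXNA1 (PLXNA1-201 at 86.5, 84.3 and 83.6% of the TPM of PLXNA1, for the lines SUM159PT, MDA-MB-231 and HS578T) and of PLXNA2 (PLXNA2-201 at 75.03, 78.6 and 78.3%). PLXNB1 was spread over 19 transcripts, of which the largest mean share, that of PLXNB1-201, was 26.3, 27.7 and 22.5%, although PLXNB1-202 (21.9%) was above it (18.9%) in HS578T shNT. The leading transcript of PLXNA3 had no defined coding sequence (PLXNA3-207 at 27.0, 23.3 and 23.8%), and in MDA-MB-231 shNT another such transcript, PLXNA3-202 (22.8%), was just above it (22.0%). A retained-intron transcript, PLXND1-204, led PLXND1 in SUM159PT (24.7%) and the protein-coding PLXND1-201 in HS578T (28.4%), both in siNT and in shNT. In MDA-MB-231 PLXND1-204 was above PLXND1-201 in siNT (24.2 against 21.4%) and below it in shNT (17.4 against 29.5%). Gene TPM of these members therefore includes short transcripts that encode no receptor. Shares of TPM count molecules and not reads.

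The ligands, partners and downstream genes of plexins were described from lists of 20 semaphorins, 10 co-receptors and 36 intracellular partners (35 tested), averaged over lines, where the shares called over all genes were 21.3% with siNRP1#3, 30.3% with siNRP1#5, 5.91% with shNRP1#3 and 15.5% with shNRP1#5. Among the semaphorins, 1 rose and 5 fell with siNRP1#3 (30.0% called), 2 and 3 with siNRP1#5 (25.0%, below the share of all genes), 1 and 4 with shNRP1#3 (25.0%), and 3 and 4 with shNRP1#5 (7 of 20). From SUM159PT and MDA-MB-231 alone 3 of the 19 tested were called with shNRP1#5 (15.8%). SEMA3D (2.17 with siNRP1#5, 2.36 with shNRP1#5) and SEMA3E, the ligand of PLXND1 (1.74 and 1.82), rose with #5, and their siNRP1#5 values from SUM159PT and MDA-MB-231 alone were 1.33 and 1.099 and also passed. SEMA3G fell with #3 (-1.79 with siRNA, -1.55 with shRNA), and SEMA3F, a ligand of PLXNA3 with NRP2, fell with siNRP1#3 (-0.94).
The co-receptor counts include NRP1 itself and were 1 higher and 3 lower with siNRP1#3 (40.0% called, with 21.3% of all genes), 2 and 3 with siNRP1#5 (50.0%, with 30.3%), 0 and 4 with shNRP1#3 (40.0%, with 5.91%), and 0 and 5 with shNRP1#5 (50.0%, with 15.5%). NRP2, the second neuropilin, fell with siNRP1#3 (-1.14, SE 0.180) and shNRP1#5 (-1.10, SE 0.180). MET, a receptor kinase that associates with class B plexins, rose with siNRP1#3 (1.24) and siNRP1#5 (1.49, or 1.18 from SUM159PT and MDA-MB-231 alone). Its relative MST1R was higher with siNRP1#5 (0.89, adjusted p = 0.00192) and also after subtraction (1.004, 0.0495), but lower from SUM159PT and MDA-MB-231 alone (-0.70, 0.0460).
Among the intracellular partners 8 rose and 4 fell with siNRP1#3 (34.3% called, with 21.3% of all genes), 11 and 6 with siNRP1#5 (48.6%, with 30.3%), 1 and 3 with shNRP1#3 (11.4%, with 5.91%), and 4 and 6 with shNRP1#5 (28.6%, with 15.5%). From SUM159PT and MDA-MB-231 alone 7 and 5 of 34 were called with siNRP1#5 (35.3%). The GTPase RND3 rose with both siRNAs (0.95 and 1.21), and from those 2 lines alone with siNRP1#5 (1.04) but not with siNRP1#3 (0.35, adjusted p = 0.446), RAP1B, a substrate of plexin GTPase-activating domains, fell with siNRP1#3 (-0.97), and the kinase LIMK1 fell with shNRP1#5 (-0.75). Medians of the partners lay between -0.15 and 0.12, close to those of all genes, and were -0.28 to 0.15 for the semaphorins and -0.51 to -0.14 for the co-receptors.

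Across the 18 groups, with each mean log2 CPM taken relative to the mean of its line, PLXNA3 and PLXNB3 were the pair of plexins with the most similar pattern (Pearson r = 0.872). PLXNA3 with PLXNB1 (0.807) and PLXNB1 with PLXNB3 (0.789) followed. PLXNA2 ran opposite to these 3, at -0.687, -0.682 and -0.617 with PLXNA3, PLXNB1 and PLXNB3. PLXNB2 was similar to PLXNA1 (0.71) and PLXND1 (0.704). These correlations describe 18 points that share libraries and scaling, and no test was made on them. Over all genes in the model, the most similar to PLXNA3 was PLXNB3 itself. The gene closest to PLXNA1 was RXRA (0.886), to PLXNA2 CKS1BP3 (0.896), to PLXNA4 POM121L9P (0.825), to PLXNB1 FKBP9 (0.924), to PLXNB2 ECE1 (0.913), to PLXNB3 TMEM63B (0.883), to PLXNC1 HLA-DMB (0.922) and to PLXND1 PDGFRB (0.943).

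**Figure D5:**
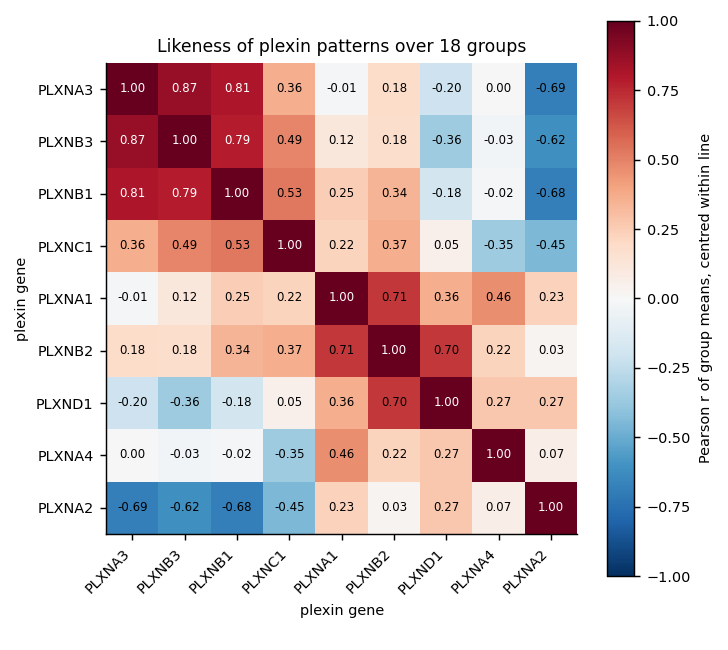
Pearson r between the plexins over 18 group means of log2 CPM, each taken relative to the mean of its cell line. PLXNA3, PLXNB1 and PLXNB3 are positively related (0.789 to 0.872), and PLXNA2 is negatively related to each of them (-0.687 to -0.617).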

How the data were processed

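The authors trimmed reads with Trim Galore 0.6.5 after FastQC 0.11.9, aligned them to GRCh38 with STAR 2.7.2b and quantified them with RSEM 1.3.3. The deposited expected counts per gene were rounded and tested. The TPM deposited by the authors served for levels between genes, and the deposited isoform percent gives each transcript as a share of the TPM of that gene. All columns were assigned from labels. The 2 samples that the authors removed were not analysed here.

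edgeR 4.0.16 in R 4.3.3 was used (filterByExpr, TMM, glmQLFit with robust = TRUE, glmQLFTest), with 1 model per line over its 6 group means and 1 over all 18, and Benjamini-Hochberg adjustment over all 20067 (SUM159PT), 18800 (MDA-MB-231), 19661 (HS578T) or 23416 (all lines) genes at 0.05. CPM were TMM-normalised over 52 samples. Alternatives used DESeq2 1.42.0 and limma 3.58.1 on log2(TPM + 1). Scripts were tested on simulated data. Replicates differed beyond counting noise (lowest chi-square per degree of freedom 12.3). Gene positions came from GENCODE 44, whose identifiers and versions matched for 9 of 9. Same-numbered samples deviated together (every correlation over 0.1) in 6 of 17 comparisons with 3 pairs and in 3 of 4 with only 2 pairs. In these 9 the replicate block changed no call of a plexin. The labels give no pairing, and the main models held no replicate block. All 9 plexins, NRP1, up to 3 called genes per list and comparison, and the genes most similar to a plexin were to be named. The plexin family and the lists were picked with earlier results of these data known, although the gene names alone decide which genes belong to the family.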

Additional observations from a re-analysis of the deposited data

Results flagged for a closer look

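In 11 tests the effect of a knockdown on a plexin differed between cell lines or between siRNA and shRNA. Between cell lines (range of the 3 log2 effects) they were PLXNA2 with siNRP1#3 (2.00) and, with siNRP1#5, PLXNA3 (1.37), PLXNC1 (4.29), PLXNB3 (2.06) and PLXNA4 (3.89). The 4 siNRP1#5 tests include the HS578T samples that held MDA-MB-231 markers at 13.2 to 21.7%, and after subtraction of other-line reads PLXNC1 (range 2.01, edgeR adjusted p = 0.255) and PLXNA2 with siNRP1#3 (0.0595) no longer passed. Between SUM159PT and MDA-MB-231 alone PLXNA3 (1.44, edgeR adjusted p = 0.0138) and PLXNB3 (2.14, 0.00388) passed, and PLXNA4 (0.22, 0.903), PLXNC1 (1.19, 0.180) and PLXNA2 with siNRP1#3 (1.73, 0.0550) did not. Between siRNA and shRNA with sequence #5 (difference of the log2 effects) they were PLXNA4 in SUM159PT (2.75) and, in MDA-MB-231, PLXND1 (1.49), PLXNA3 (0.91), PLXNC1 (-1.01), PLXNB3 (1.05) and PLXNA4 (1.70). Delivery, selection, harvest time and the fall of NRP1 differ with the modality and cannot be told apart.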

How the results depend on the processing

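No called value of a plexin changed sign in any alternative. Of 110 calls, 58 were kept in every fit that left out a sample or replicate number and 56 in every other alternative. Limma on log2(TPM + 1) lost 34 of the 110, DESeq2 1, RLE scaling 4, no filter 7, subtraction 2 and the replicate block 2. Fitting only the 2 groups compared lost 13 of 64 calls, SUM159PT and MDA-MB-231 alone 9 of 26, shNT alone 3 of 14 and siNT alone 2 of 14. Counts moved by more than 1.5 times as follows. Limma gave 16 calls for #5 against #3 (25 in the report), 5 for shNT against siNT (8) and 2 for siRNA against shRNA (6), where DESeq2 gave 10. Tests of a difference between lines passed 9 times with no filter, 3 times from SUM159PT and MDA-MB-231 alone and 3 times after subtraction (5). The fits that left out a sample gave 27 to 32 calls for knockdown against control, 22 to 26 for #5 against #3, 5 to 10 for shNT against siNT and 4 to 7 for siRNA against shRNA. Those that left out a replicate number gave 12 to 16 averaged calls, 12 to 17 between lines and 3 to 5 for differences between lines. The 13 lost with only the 2 groups compared include all 5 of SUM159PT siNRP1#5, which has 2 samples (adjusted p = 0.0591 to 0.131). With a replicate block PLXNB2 in HS578T was no longer called against MDA-MB-231 or SUM159PT (adjusted p = 0.191 and 0.211), and the counts were 33, 27, 11 and 8 for knockdown against control, #5 against #3, shNT against siNT and siRNA against shRNA, and 22, 12 and 6 for averaged effects, lines and differences between lines. Same-numbered samples deviated together (every correlation over 0.1) in 6 comparisons with 3 pairs, although the labels give no pairing. In 3 more every correlation was over 0.1 but only 2 pairs exist, and elsewhere the samples share only a number. The causes were not tested. Depth limits PLXNC1 in HS578T and PLXNA4 in SUM159PT and MDA-MB-231, which were near or below 1 CPM. It also limits PLXNC1 in SUM159PT, with means of 0.318 CPM in siNRP1#5, 0.394 in shNRP1#3, 0.540 in shNRP1#5 and 0.929 in shNT.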
